A study of Mus musculus with 60 samples.

Results

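This comparison asks which transcripts of the mouse prefrontal cortex differ with the Trip12 genotype when no drug is given. It takes the 20 vehicle libraries out of 60 in the study: 10 labelled HT, heterozygous for Trip12, and 10 labelled WT, chosen by their genotype and treatment labels. Each genotype holds 5 females and 5 males of the C57BL/6J strain, whose prefrontal cortex was taken on postnatal day 25. The other 40 libraries come from pups that had fluoxetine, a serotonin reuptake inhibitor, or lithium through the milk of the dam. Vehicle is the label of the group without either drug. The labels give all 60 samples, vehicle included, a treatment from postnatal day 3 to 24, over 3 weeks. The labels do not describe the Trip12 allele, its construction or the cells in which it acts, and they name neither animals nor litters. Each p-value therefore measures the spread among these samples.

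Trip12 is a ubiquitin ligase of the HECT family, which takes ubiquitin onto its own catalytic cysteine before passing it to a protein. It is known for marking ubiquitin fusion proteins and regulators of chromatin and DNA repair for the proteasome. In people, loss of 1 TRIP12 copy is linked to intellectual disability and autism. The prefrontal cortex borders the striatum behind it and the olfactory bulb in front of it, so a dissection can carry neurons of either.

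Values are gene-level read counts divided by a size factor for each library, called normalized counts below, and fold changes are on the scale log2(normalized count + 1), HT over WT. The 20 vehicle libraries held 26.6 to 31.0 M reads (M, 1e6) over 18088 genes. Cortical projection neuron markers were present in every vehicle library, among them Tbr1 at 2907 to 4755 normalized counts and Cux2 at 2742 to 3977. The library of HT male 1 stood apart from the rest: it had the highest value on the first principal component (164) and the highest slope of read number on gene length (0.0889, against 0.0414 in the next library). Markers of striatal neurons also varied by library, with Drd2 from 15.99 to 399 normalized counts, and so did olfactory bulb markers, with Eomes from 2.06 to 812. Results that these libraries touch are given with and without HT male 1, and with marker scores in the model.

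Trip12 itself (ENSMUSG00000026219, chr1:84721189-84840516 of GRCm38, minus strand) was not lower in the libraries labelled HT. Females labelled HT had 5935, 6245, 6029.8, 5963 and 5720.5 normalized counts of Trip12 in replicates 1 to 5, a mean of 5979 ± 188 (SD, n = 5). WT females had 5915, 5099, 5393, 6126 and 5785, a mean of 5664 ± 413. The females overlapped. Males labelled HT had 6953, 6285, 6299.8, 6299.7 and 5950.2 (mean 6358 ± 365), and WT males 5619, 5798, 5941, 5936 and 5277 (mean 5714 ± 278). Every male labelled HT lay above every WT male, though HT male 5 and WT male 3 were close. The difference over both sexes was 0.12 ± 0.04 (SE, limma adjusted p = 0.34), with 10 of 10 HT libraries above the WT mean, and DESeq2 gave an adjusted p of 0.18. Since the allele is not described, this RNA level does not check the genotype labels, and directions below rest on the labels. The opposite-strand coding gene Fbxo36 overlaps Trip12. Of 62 genes tested within 5 Mb of Trip12, 0 were called and 5 (8.06%) had an unadjusted p under 0.05, the smallest for Slc19a3 (-0.28, limma adjusted p = 0.23).

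With sex as a block, 9 of 17173 genes tested (0.0524%) passed a Benjamini-Hochberg adjusted p of 0.05 in limma, 6 higher (0.0349%) and 3 lower (0.0175%) in libraries labelled HT. A gene that passed is said to rise or fall, or to be called. Those that rose were Alox12b, a lipoxygenase, Kif27, a kinesin of motile cilia, CT486005.1, a long non-coding RNA, Smpdl3b, a membrane-bound relative of sphingomyelinase, Col9a3, a collagen chain, and Rapgef6, an exchange factor that activates Rap proteins. The genes that fell were Myl4, a myosin light chain, Shroom3, a regulator of actin and apical constriction, and Gm10635, an unnamed gene model. Smpdl3b, with a mean of 37.0 normalized counts, and Gm10635 lie outside the naming rule and were chosen after their values were seen. All 9 had 10 of 10 HT libraries on the same side of the WT mean, which selection by p in these libraries favours. Trip12, which was not called, had this as well. Without adjustment 1421 genes (8.27%) had a p under 0.05, with 0.0698 as the median SE.

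The number of calls depended on the libraries. Without HT male 1, 39 of 17139 genes (0.228%) were called, 25 higher and 14 lower, including all 9. Without WT female 4 there were 15 calls, of which 8 were among the 9, and each of the other 18 libraries left out in turn gave 2 to 6. Alox12b and Gm10635 were called in all 20 such fits and Myl4 in 17. Kif27 was called in 6, Smpdl3b in 4, CT486005.1, Shroom3 and Rapgef6 in 3, and Col9a3 in 2. DESeq2 on the recovered reads called 70 genes and edgeR 9, and both included the 9.

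Alox12b (ENSMUSG00000032807, chr11:69156989-69169792, plus strand) makes a 12R-lipoxygenase best known from the lipid barrier of the skin. It had 77.2, 91.6, 85.3, 68.2 and 105 normalized counts in females labelled HT and 50.8, 72.0, 52.3, 43.9 and 60.1 in WT females. In males labelled HT it had 81.5, 83.7, 95.7, 83.4 and 78.1, and in WT males 48.5, 62.8, 43.4, 56.9 and 37.2. The lowest male labelled HT was above the highest WT male, while in females the HT and WT libraries overlapped, with HT female 4 at 68.2 and WT female 2 at 72.0. The Alox12b means were 85.5 ± 14.1 against 55.8 ± 10.7 in females and 84.5 ± 6.63 against 49.8 ± 10.2 in males (SD, n = 5). The rise was 0.69 ± 0.11 (SE, limma adjusted p = 0.015), and 0.64 to 0.74 with each library left out. It was 0.61 in females and 0.77 in males.

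Gm10635 (ENSMUSG00000111765, chr9:79444037-79519302, minus strand) had the largest fall among the 9. Its values were 61.4, 91.6, 76.8, 46.1 and 54.7 normalized counts in females labelled HT and 108, 88.5, 126, 98.6 and 169 in WT females. Males labelled HT had 51.9, 52.7, 56.1, 75.7 and 66.3 and WT males 128, 111, 149.9, 90.2 and 92.1. The males did not overlap, and in females only HT female 2 (91.6) lay above the lowest WT female (88.5). The Gm10635 difference was -0.86 ± 0.13 (SE, limma adjusted p = 0.015).

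Myl4 (ENSMUSG00000061086, chr11:104550663-104595753, plus strand) is the essential myosin light chain of embryonic muscle and atrium. It had 893, 1118, 869.9, 864 and 973 normalized counts in females labelled HT against 1281, 1303, 1288, 973 and 1165 in WT females. Males labelled HT had 739, 888, 881, 867 and 849.6, and WT males 1235, 1083, 984, 1082 and 1123. All males labelled HT were below all WT males, and HT male 1, at 739, was the lowest of the 20 libraries. In females HT female 2 (1118) lay within the WT range, whose lowest library was WT female 4. The fall in Myl4 was -0.36 ± 0.06 (SE, limma adjusted p = 0.019), -0.35 in females and -0.38 in males. Its call was lost without HT female 3, WT female 1 or WT female 3, with an adjusted p of up to 0.060. A set of 4 non-coding or pseudogene models overlap Myl4 on the other strand, and the strand setting of the counting is not given in the sources used here.

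Kif27 (ENSMUSG00000060176, chr13:58287502-58359122, minus strand) was the only called gene whose genotypes did not overlap in either sex. Females labelled HT had 63.3, 67.3, 74.6, 79.3 and 78.9 normalized counts and WT females 47.8, 61.7, 56.5, 52.7 and 53.8. Males labelled HT had 77.4, 72.4, 92.5, 86.7 and 94.9 and WT males 69.0, 59.9, 57.6, 61.2 and 55.9. The lowest HT library stood at 63.3 against a highest WT value of 61.7 in females, and at 72.4 against 69.0 in males. The Kif27 rise was 0.44 ± 0.08 (SE, limma adjusted p = 0.044), 0.41 in females and 0.47 in males.

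The promoters of Alox12b, Myl4 and Kif27 are shown because these are the named rise and fall with the smallest p and the gene whose genotypes were apart in both sexes. Each runs from 250 bases before to 50 after the RefSeq start in GRCm38.p6, 5′ to 3′ on the strand of the gene, which for Alox12b is chr11:69156822-69157121 (plus), for Myl4 chr11:104550413-104550712 (plus) and for Kif27 chr13:58354898-58355197 (minus). Capitals mark a match on either strand to the TATA box TATAAA, to the CCAAT box, to the GC box GGGCGG or to the cyclic AMP element TGACGTCA.
Alox12b: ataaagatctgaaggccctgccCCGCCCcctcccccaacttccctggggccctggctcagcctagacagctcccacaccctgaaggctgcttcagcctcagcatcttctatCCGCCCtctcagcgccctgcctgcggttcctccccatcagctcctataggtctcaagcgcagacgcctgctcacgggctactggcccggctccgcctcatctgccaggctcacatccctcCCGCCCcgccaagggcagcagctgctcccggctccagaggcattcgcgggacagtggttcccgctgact
Myl4: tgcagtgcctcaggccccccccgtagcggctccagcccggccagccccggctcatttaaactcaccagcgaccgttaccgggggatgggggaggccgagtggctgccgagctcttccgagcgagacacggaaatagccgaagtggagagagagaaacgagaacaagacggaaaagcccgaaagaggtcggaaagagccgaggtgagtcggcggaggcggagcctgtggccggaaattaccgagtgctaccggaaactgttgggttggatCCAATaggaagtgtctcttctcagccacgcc
Kif27: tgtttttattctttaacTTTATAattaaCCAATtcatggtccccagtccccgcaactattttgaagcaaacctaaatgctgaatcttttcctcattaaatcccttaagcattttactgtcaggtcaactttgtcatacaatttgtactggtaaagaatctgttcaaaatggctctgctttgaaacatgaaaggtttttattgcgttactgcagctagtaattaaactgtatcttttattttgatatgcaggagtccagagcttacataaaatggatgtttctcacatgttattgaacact
Of 6 called genes with a RefSeq entry, these 3 differed in the letters found. Alox12b held 3 matches to the GC box, Myl4 held 1 CCAAT and Kif27 held 1 TATA box and 1 CCAAT. The Kif27 window lies inside the gene span given above, whose 5′ end is at 58359122, so it may not hold the main promoter. Both Kif27 matches lie near the 5′ end of that window, far from the RefSeq start. Among 32851 promoters of the same length, 35.7% held the GC box, 37.4% the CCAAT box, 13.6% the TATA box and 1.79% the cyclic AMP element. A match here describes letters in the window.

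CT486005.1 (ENSMUSG00000117011, chr17:43146041-43158291, minus strand) was the called gene that overlapped in both sexes. It had 176, 169.6, 178, 182 and 179 normalized counts in females labelled HT, 111, 125, 102, 173 and 118 in WT females, 203, 156, 225, 214 and 187 in males labelled HT and 125, 149.7, 159.6, 164 and 129 in WT males. Only WT female 4, at 173, reached into the narrow range of the females labelled HT, and only HT male 2, at 156, lay inside the WT male range. The CT486005.1 rise was 0.47 ± 0.09 (SE, limma adjusted p = 0.044).

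Smpdl3b (chr4:132732966-132757252, minus strand) ran from 26.7 to 63.4 normalized counts with a median of 45.7 over the 10 HT libraries, and from 19.6 to 39.1 with a median of 26.4 over WT. Males were apart and females overlapped, and the Smpdl3b rise was 0.76 ± 0.14 (SE, limma adjusted p = 0.044). Rapgef6 (chr11:54522847-54699285, plus strand) showed the same pattern at a higher level, 981 to 1158 (median 1091) in HT and 882 to 1013 (median 956) in WT. Its rise was the smallest of the 9, 0.19 ± 0.04 (SE, limma adjusted p = 0.044).

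Col9a3 (chr2:180597790-180622189, plus strand) and Shroom3 (chr5:92683435-92965318, plus strand) were apart in females and overlapped in males. Col9a3 had 597, 519.6, 531, 562 and 627 normalized counts in females labelled HT against 382, 471, 465, 497 and 424 in WT females, and rose by 0.29 ± 0.05 over both sexes (SE, limma adjusted p = 0.044). Among males labelled HT only HT male 1, at 487, lay within the WT male range of 471 to 502. Shroom3 had 119, 105, 126, 128 and 113 in females labelled HT against 157, 154, 140.1, 167 and 159 in WT females, and fell by 0.38 ± 0.07 on the log2 scale (SE, limma adjusted p = 0.044). In males the only WT library of Shroom3 inside the HT range was WT male 5 (132). The gene span of Col9a3 overlaps that of the coding gene Tcfl5 on the opposite strand.

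**Figure D1:**
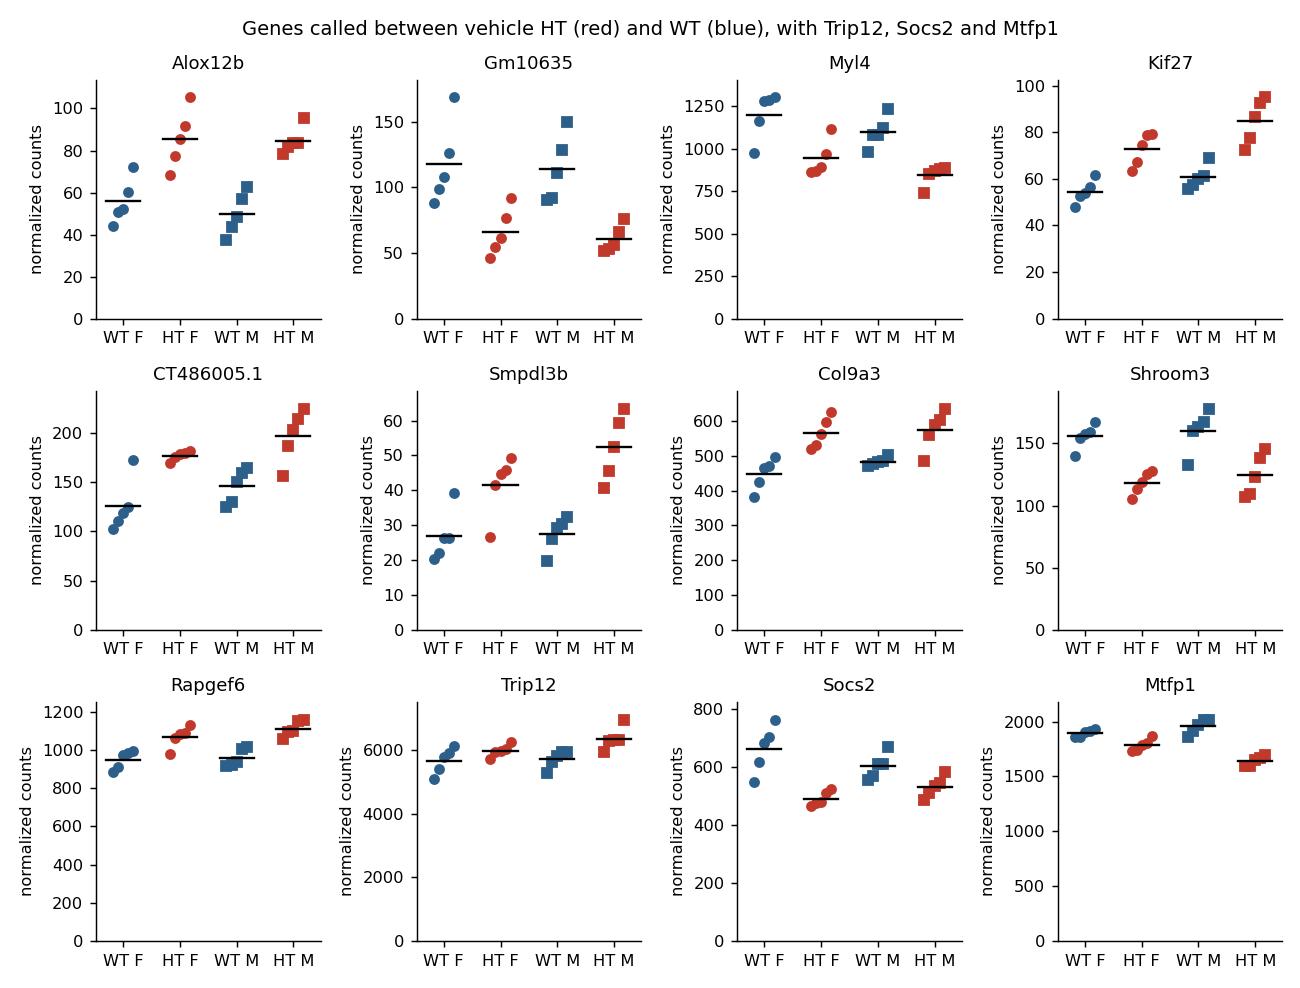
Normalized counts (vertical axes, from 0) of the 9 called genes and of Trip12, Socs2 and Mtfp1 in each vehicle library, by genotype and sex; red is HT, blue WT, circles are females, squares males, and black lines are group means. Kif27 is the only called gene without overlap in either sex, and for Trip12 the females overlap while every HT male lies above every WT male.

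Just outside the threshold stood genes that were chosen as values after their p was seen, or as the smallest p of a list. Mtfp1, a mitochondrial fission protein, had 1593, 1671, 1696, 1595 and 1649 normalized counts in males labelled HT and 2017, 1968, 1864, 1917 and 2013 in WT males, with no overlap. Over both sexes its difference was -0.17 ± 0.03 (SE, limma adjusted p = 0.058). Mtfp1 was the only gene called within a sex: it fell in males by 0.25 ± 0.04 on the log2 scale (limma adjusted p = 0.028), and stood at -0.08 in females (adjusted p = 0.90). The difference between the sexes for Mtfp1 was -0.17 (unadjusted p = 0.0051, limma adjusted p = 0.79).

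Socs2, which restrains growth hormone signalling, had 480.2, 465, 511, 523 and 475 normalized counts in females labelled HT against 763, 617, 547, 702 and 684 in WT females. The females did not overlap, the males did, and the values were -0.42 in females (limma adjusted p = 0.35), -0.18 in males and -0.30 ± 0.06 over both (SE, adjusted p = 0.069). Abcc9, a potassium channel subunit of pericytes, stood at -0.32 ± 0.06 (adjusted p = 0.062) and Npnt, an extracellular matrix ligand of integrin, at -0.28 ± 0.06 (adjusted p = 0.074). Stxbp2, a syntaxin-binding protein of vesicle release, stood at 0.37 ± 0.07 (adjusted p = 0.075) and Rasgrp2, an exchange factor for Rap, at 0.43 ± 0.09 (adjusted p = 0.10). On the inner side of the threshold, 6 of the 9 calls had an adjusted p of 0.044.

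The limma tests within a sex came from a fit to all vehicle libraries together, with the spread shared by both sexes and genotypes. A library of one sex, such as HT male 1, therefore enters the SE of the other. Within females 0 genes were called (percent called 0) while 930 (5.42%) had an unadjusted p under 0.05. DESeq2 called 5 and edgeR 0. In males 1 gene was called (0.00582%), Mtfp1, with 1614 (9.4%) under an unadjusted 0.05, where DESeq2 called 53 and edgeR 1. The call of Mtfp1 in males was lost without HT female 3, HT males 2, 4 or 5, or WT males 2, 4 or 5, and in females 1 gene was called without WT female 3. A test of the difference between the sexes called 0 genes (percent called 0) by limma, DESeq2 and edgeR, with 1067 (6.21%) at an unadjusted p under 0.05 and a smallest limma adjusted p of 0.79. The median SE within a sex was 0.0982.

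Across all 17173 genes the female and male differences had a Pearson r of 0.047 and a Spearman rho of 0.050. Genes share libraries, so this describes the 20 samples. The sign was the same in both sexes for 49.7% of genes. Of the 930 genes with an unadjusted p under 0.05 in females, 569 (61.2%) had the same sign in males, and of the 1614 in males 957 (59.3%) had the same sign in females. Both p-values were under 0.05 with the same sign for 116 genes, which are 12.5% of the female and 7.19% of the male genes, and with opposite signs for 22. Without HT male 1, r was 0.054, rho 0.088 and the share of the same sign 52.2%, with 216 genes under 0.05 in both sexes agreeing and 37 opposed. With the striatal and bulb scores described below in the model, rho was 0.0099 and the share of the same sign 48.4%. In that model 123 genes under 0.05 in both sexes agreed and 90 were opposed. Of its male genes under 0.05, 47.8% had the same sign in females. Where the mean count reached 500, rho was -0.032 without the scores and -0.11 with them.

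All 9 called genes had the same sign in both sexes, which the average over sexes favours. Their differences in females and males were 0.61 and 0.77 for Alox12b, 0.62 and 0.90 for Smpdl3b, and 0.51 and 0.43 for CT486005.1. Col9a3 had 0.34 and 0.24, and Rapgef6 0.17 and 0.21. The values of the falling genes were -0.39 and -0.36 for Shroom3 and -0.83 and -0.89 for Gm10635. The widest gap between the sexes was that of Smpdl3b (0.28, limma adjusted p = 0.85).

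The libraries of HT and WT did not overlap for 146 genes (0.85%) in females and 426 (2.48%) in males, and for 0 genes when all 10 were set against 10. Non-overlap in both sexes with the same direction was found for 3 genes (0.0175%), Kif27, Adnp2 and Gm1141. Adnp2, a homeobox zinc finger gene, stood at 0.12 ± 0.03 (limma adjusted p = 0.27), and Gm1141 at -0.91 ± 0.18 (adjusted p = 0.074) from a mean of only 16.7 normalized counts. For 1 gene (0.00582%), Musk, a receptor kinase of the neuromuscular junction, the groups were apart in opposite directions. The Musk values were -1.04 in females and 0.58 in males, with a difference of 1.63 (limma adjusted p = 0.79) at a mean of 10.7 normalized counts. Adnp2, Gm1141 and Musk were chosen after their values were seen.

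**Figure D2:**
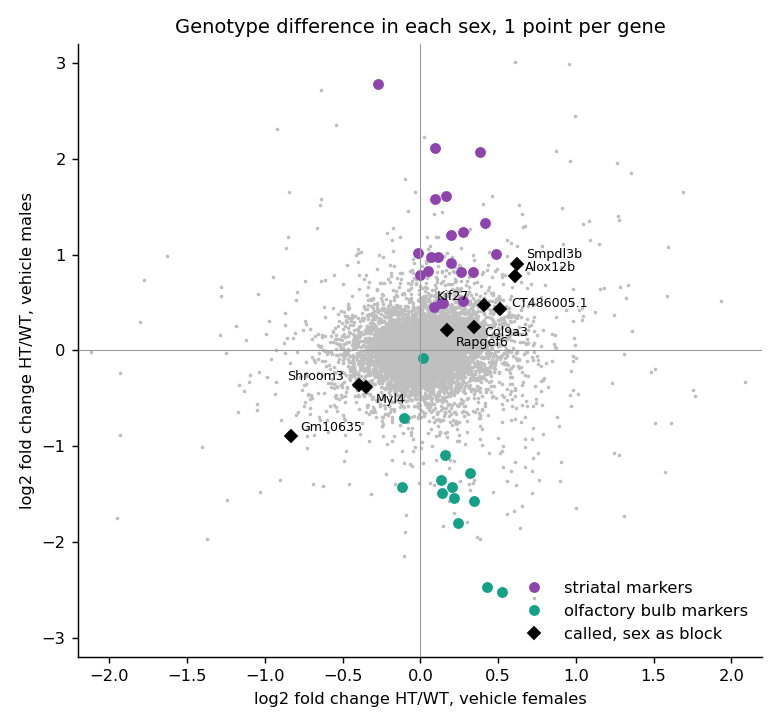
The log2 fold change HT over WT in vehicle females (horizontal) and males (vertical), 1 point per gene; black diamonds are the 9 called genes, purple points striatal markers, teal points olfactory bulb markers, and 7 genes lie outside the axes. Called genes have the same sign on both axes, and striatal markers lie high and bulb markers low on the male axis.

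Striatal medium spiny neurons express dopamine receptors and the signalling proteins downstream of them, and 6 genes were used as their core markers. Drd2, the dopamine D2 receptor, had 31.6, 177, 362, 399 and 334 normalized counts in males labelled HT and 31.3, 99.5, 125, 18.3 and 26.5 in WT males. HT males 2 to 5 were above every WT male and HT male 1 was within the WT range. In females labelled HT Drd2 had 157, 57.5, 15.99, 47.0 and 25.3, and in WT females 20.3, 30.9, 24.0, 35.1 and 84.3, with a wide overlap. Adora2a, an adenosine receptor that pairs with Drd2, was found at 62.1, 344, 608, 712 and 504 in males labelled HT and 62.5, 178, 207, 89.1 and 91.1 in WT males.

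None of the striatal core markers was called over both sexes (smallest adjusted p = 0.33, for Rgs9). Among them, the differences were 0.54 for Drd1, 1.23 for Drd2, 0.84 for Adora2a, 0.76 for Rgs9 and 0.44 for Ppp1r1b. Of all 6, 5 had an unadjusted p under 0.05. The core median was 0.65, beside 0.0011 over all genes tested. By sex it was 0.10 in females and 1.13 in males. A further 15 striatal markers, such as Pde10a, Penk and Tac1, had a median of 0.55, 0.16 in females and 0.91 in males, with 15 of 15 above 0, 12 at an unadjusted p under 0.05 and 0 called. Pde10a, a phosphodiesterase of these neurons, had the smallest p of them (0.74 ± 0.17, limma adjusted p = 0.13).

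Without HT male 1, striatal markers were called in males. There 88 of 17139 genes (0.513%) were called, 69 higher and 19 lower, and 16 of the 21 striatal markers were among the 69: 5 of 6 core and 11 of 15 others. The male medians were then 1.44 and 1.15. Of the 88, 36 also had a called slope on the striatal score described next, where 0.664% of all genes do. That slope was fitted to the same vehicle libraries, and HT males 2 to 5 are among the highest on the score. The overlap is therefore partly built in and gives no separate support. Of the 39 genes called over both sexes without HT male 1, 2 were striatal markers and 5 had a called striatal slope. In females 0 genes were called (percent called 0) without that library, by limma, and 1172 had an unadjusted p under 0.05. In bulk tissue, more cells of a type and more RNA in each such cell cannot be told apart.

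A striatal score, the mean log2 value of the 6 core markers with the mean over the 20 libraries set to 0, put numbers on this. HT males 2 to 5 stood at 0.88, 1.64, 1.74 and 1.51, and HT female 1 at 0.76. These 5 were the highest of the 20, above the top WT library at 0.36 (WT male 3). HT male 1 had -0.71, and the other 4 females labelled HT had -0.88 to -0.11. The summed level of the 6 genes ran from 2768 to 11118 normalized counts with a median of 9799 in males labelled HT, and from 2891 to 4723 with a median of 3363 in WT males. No core striatal marker was at 0 in any library. The extent of the dissection and the genotype cannot be told apart in this score.

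Olfactory bulb output neurons are marked by Eomes and Tbx21, transcription factors of mitral and tufted cells, with Cdhr1, Doc2g and Shisa3. Cdhr1 had 3567, 333, 443, 372 and 623 normalized counts in males labelled HT and 1219, 2018, 1657, 2524 and 2739.9 in WT males. HT male 1 was above every WT male and HT males 2 to 5 were below every one of them. In females Cdhr1 had 965, 509.9, 3268, 2961 and 642 with HT and 1145, 165, 1475, 4140.1 and 802 with WT, and the extremes of all 20 libraries, 165 in WT female 2 and 4140 in WT female 4, were both WT. Every female group held both low and high Cdhr1 libraries.

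The core bulb differences were -0.997 for Eomes, -1.02 for Tbx21, -0.61 for Cdhr1, -0.78 for Doc2g and -0.68 for Shisa3. None was called (smallest limma adjusted p = 0.75, for Doc2g) and none had an unadjusted p under 0.05. Their median was -0.78 over both sexes, 0.34 in females and -1.81 in males, or -2.39 in males without HT male 1. Another 8 bulb markers, including Th and Reln, had a median of -0.55, with 0 called and 8 of 8 below 0. Among them Prokr2, a receptor in the migration of bulb neurons, had the smallest p (-0.41 ± 0.24, adjusted p = 0.68). The bulb score, made the same way from the 5 core genes, ran from -3.46 (WT female 2) to 2.12 (WT female 4). HT males 2 to 5 had -2.05, -1.80, -2.22 and -0.74, HT male 1 had 1.90, and WT males 0.36 to 1.51.

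The promoters of Drd2 (chr9:49340153-49340452, plus strand) and Cdhr1 (chr14:37098298-37098597, minus strand) are shown as examples of the markers whose levels moved together within each score, with the same window, build and capitals as above.
Drd2: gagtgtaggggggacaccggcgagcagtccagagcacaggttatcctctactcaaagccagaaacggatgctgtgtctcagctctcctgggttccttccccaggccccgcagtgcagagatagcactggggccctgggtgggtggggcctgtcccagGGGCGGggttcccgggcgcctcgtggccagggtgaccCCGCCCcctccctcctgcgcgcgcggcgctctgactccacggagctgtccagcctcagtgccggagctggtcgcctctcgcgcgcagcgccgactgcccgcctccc
Cdhr1: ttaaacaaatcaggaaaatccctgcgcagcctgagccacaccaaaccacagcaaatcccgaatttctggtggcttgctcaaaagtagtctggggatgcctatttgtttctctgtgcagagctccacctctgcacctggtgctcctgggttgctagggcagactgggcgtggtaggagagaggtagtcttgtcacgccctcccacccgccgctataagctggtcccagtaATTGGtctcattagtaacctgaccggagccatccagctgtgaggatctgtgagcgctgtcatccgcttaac
Drd2 held 2 matches to the GC box, and Cdhr1 held 1 CCAAT.

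**Figure D3:**
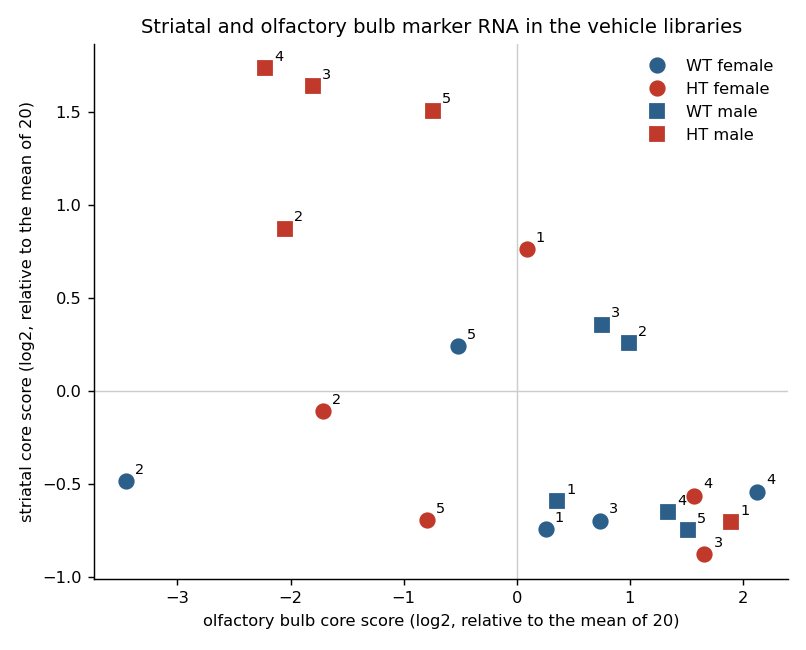
Olfactory bulb score (horizontal) and striatal score (vertical), in log2 units relative to the mean of 20, of the 20 vehicle libraries; red is HT, blue WT, circles are females and squares males, and numbers are replicates. HT males 2 to 5 lie together at a high striatal and low bulb score, and HT male 1 lies near WT males 4 and 5 at a striatal score of -0.71.

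Many genes followed the scores. In a model with sex, genotype and both scores, 114 genes (0.664%) had a called slope on the striatal score, 94 of them positive, and 780 (4.54%) on the bulb score, 632 positive. The core markers of each score were among the genes tested. Pde10a had a striatal slope of 0.49 (limma adjusted p = 0.00022). Of the 9 called genes, Myl4 had a called slope, on the bulb score, of -0.075 (adjusted p = 0.019), and the other 8 had none on either score.

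With both scores in the model 4 genes were called (0.0233%): Alox12b (0.66, limma adjusted p = 0.022), Gm10635 (-0.98, adjusted p = 0.0088), Myl4 (-0.37, adjusted p = 0.0066) and Ctss. The other 6 called genes kept their direction without the call: Kif27 at 0.43 (adjusted p = 0.11), CT486005.1 at 0.45 (0.11), Smpdl3b at 0.61 (0.11), Col9a3 at 0.25 (0.17), Shroom3 at -0.42 (0.077) and Rapgef6 at 0.21 (0.077). With the striatal score alone the one call was Gm10635 (adjusted p = 0.015), and Alox12b and Myl4 had adjusted p = 0.088 and 0.088. With the bulb score alone 5 genes were called, 4 of them among the 9. With both scores and without HT male 1 the call of Alox12b was lost as well (adjusted p = 0.13).

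Ctss, the lysosomal protease cathepsin S of microglia, was called with both scores in the model, but not when HT male 1 was also left out (limma adjusted p = 0.13). Its values were 1239, 1635, 1647, 1477 and 1950.3 normalized counts in females labelled HT, 1400.2, 1602, 1595, 1077 and 1186 in WT females, 1708, 1591, 1444, 1437 and 1477 in males labelled HT and 1299, 1203, 1187, 1191 and 1469 in WT males. The groups overlapped in both sexes. Ctss stood at 0.24 ± 0.08 (SE, limma adjusted p = 0.34) without the scores and rose by 0.34 ± 0.06 (adjusted p = 0.025) with them. It had called negative slopes on both, -0.24 on the striatal score (adjusted p = 0.0098) and -0.089 on the bulb score (adjusted p = 0.012). The list of 12 microglial markers did not share the rise, as 9 lay below 0 without the scores (median -0.05). With both scores 7 lay above and 5 below 0 (median 0.013), and only Ctss was called.

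Within males the count varied widely with the model, and the cause was not tested. Both scores together gave 178 calls (1.04%), 49 higher and 129 lower, and the same model without HT male 1 gave 0, with 1432 at an unadjusted p under 0.05 (limma). Within females 0 genes were called with both scores (percent called 0), and 1278 had an unadjusted p under 0.05. Scores and genotype are tied in these males, since 4 of 5 HT libraries lie beyond all WT libraries on the striatal score, and their parts in a male difference cannot be told apart.

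**Figure D4:**
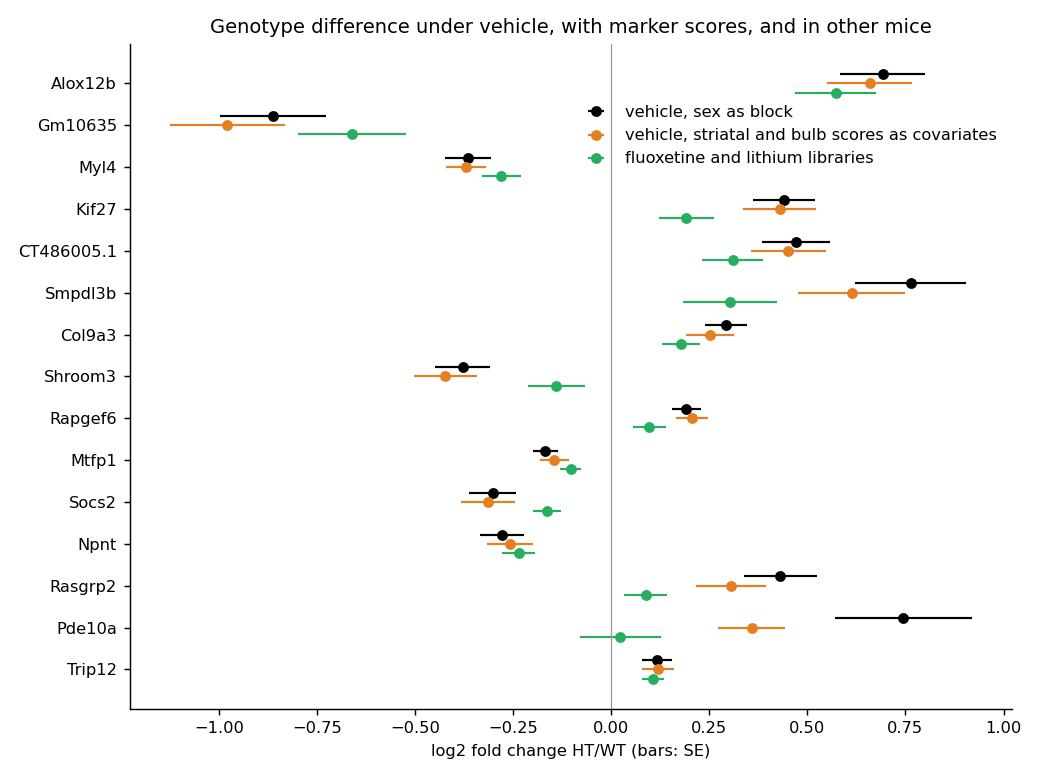
Log2 fold change HT over WT (horizontal axis) of the 9 called genes and 6 others under vehicle (black), with the striatal and bulb scores in the model (orange) and in the fluoxetine and lithium libraries (green); bars are SE. With the scores Alox12b moves from 0.69 to 0.66 and Pde10a from 0.74 to 0.36.

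Other cell types showed no called marker in the blocked comparison. All 15 myelinating oligodendrocyte markers lay above 0, with a median of 0.26 (0.33 in females, 0.19 in males), 0 called and 1 at an unadjusted p under 0.05, the myelin protein gene Mobp (0.31 ± 0.15, limma adjusted p = 0.60). With both scores in the model the oligodendrocyte median was 0.028, with 10 of 15 above 0, from values that ran opposite ways by sex. It was 0.28 in females with 15 of 15 above 0, 5 of them at an unadjusted p under 0.05, and -0.34 in males with 15 of 15 below 0, 5 of them at an unadjusted p under 0.05. Without HT male 1 and without the scores the median was 0.33, with 12 of 15 at an unadjusted p under 0.05 and 0 called. Of 17 endothelial and mural markers 16 lay below 0, with a median of -0.13 and 10 lower at an unadjusted p under 0.05, against 653 of 17173 genes overall. The median was -0.08 in females, -0.24 in males and -0.10 with both scores. Without HT male 1, 2 of these 17 markers were called lower, beside 14 of all 17139 genes tested.

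Neuronal classes of the cortex lay close to 0. The 8 upper-layer markers had a median of -0.04, with the smallest p for Lamp5 (-0.17 ± 0.06, adjusted p = 0.35), and the 11 deep-layer markers had 0.02, or -0.08 with both scores, with Etv1 at -0.17 ± 0.07 (adjusted p = 0.52). Of 11 interneuron markers (median -0.05), Pvalb, the calcium buffer of fast-spiking cells, had the smallest p. It had 489.5, 434, 433, 479 and 403 normalized counts in females labelled HT, 586, 606, 654, 423 and 651 in WT females, 436, 496, 476, 502 and 467 in males labelled HT and 709, 663, 619, 488 and 509 in WT males. All 10 HT libraries were below the WT mean for Pvalb, the groups overlapped in each sex, and the difference was -0.34 ± 0.08 (SE, limma adjusted p = 0.12).

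Glia and border cells had small medians over both sexes as well. They were -0.04 for 10 astrocyte markers (Sox9 at 0.17, adjusted p = 0.47), 0.07 for 6 precursor markers (Enpp6 at 0.30, adjusted p = 0.43) and -0.05 for 12 microglial markers, where Ctss had the smallest p. Meningeal fibroblast markers had -0.07 (10 genes, Igf2 at -0.10, adjusted p = 0.87) and choroid plexus markers 0.12 (4 genes tested, Clic6 at 0.55, adjusted p = 0.50). Blood markers had 0.15, with 5 of 5 above 0 (Alas2 at 0.37, adjusted p = 0.57), and thalamic markers 0.03 (6 genes, Tnnt1 at 0.27, adjusted p = 0.65). No marker of these lists was called. By sex, fibroblast markers lay below 0 in 10 of 10 cases in females and 4 of 10 in males. Astrocyte markers lay below 0 in 4 of 10 and 9 of 10 cases, and microglial markers in 6 of 12 and 11 of 12. With both scores in the model, all 10 fibroblast markers were below 0 in females (median -0.07) and above 0 in males (median 0.38).

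**Figure D5:**
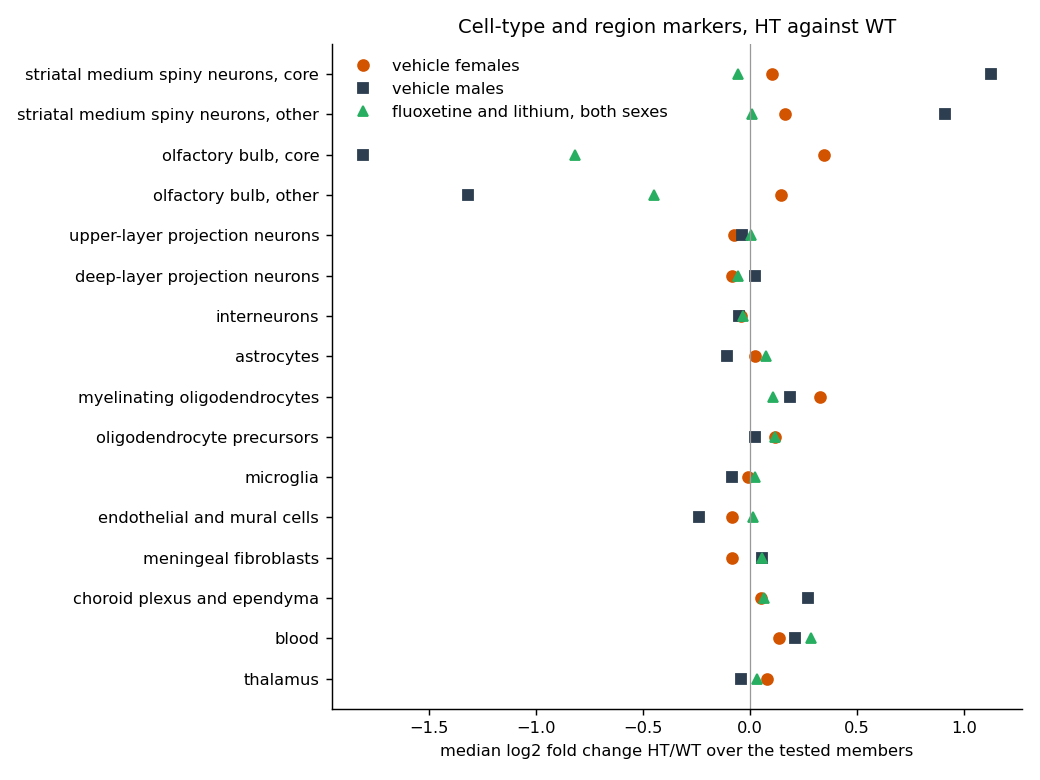
Median log2 fold change HT over WT (horizontal axis) of each cell type or region marker list in vehicle females (circles), vehicle males (squares) and the fluoxetine and lithium libraries (triangles). Striatal and bulb lists have the widest gap between the sexes, with core medians of 0.10 and 1.13 for striatum and 0.34 and -1.81 for bulb in females and males.

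Over both sexes, the lists of Trip12 partners, other HECT ligases, proteasome subunits and autism-linked regulators had medians near that of all genes. The 11 reported partners and substrates had a median of 0.02, 7 above 0, 0 called and 0 at an unadjusted p under 0.05, and the median was -0.006 without HT male 1. The 24 other HECT ligases had a median of 0.02, with 6 above 0 in females and 20 in males, 0 called, and the smallest p for Arel1 (0.06 ± 0.03, limma adjusted p = 0.64). Of 31 proteasome subunits 0 were called and 17 lay above 0, 22 in females and 8 in males, with the smallest p for the ATPase Psmc4 (-0.08 ± 0.04, adjusted p = 0.63). The 19 autism-linked chromatin and transcription regulators had 14 above 0, a median of 0.02 and 0 called, with 4 above 0 in females (median -0.04) and 15 in males (median 0.08), Setd5 having the smallest p (0.06 ± 0.03, adjusted p = 0.59).

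Family lists were made for Alox12b, Myl4 and Rapgef6, each with that gene as its only call, where 0.0524% of all genes tested were called. The lipoxygenase list had 6 genes tested, among them Alox5ap, an activating protein and not a lipoxygenase. Of these 6 Alox12b was called and the median was 0.17. Of 6 myosin light chains Myl4 was called and the median was -0.09. Of 14 exchange factors for Ras and Rap, Rapgef6 was called and the median was 0.001. These lists were chosen with the genes in view. Among 13 growth hormone, Stat5 and Socs genes (median -0.02) Socs2 had the smallest p, among 15 fission and fusion genes (median 0.01) Mtfp1, and among 18 phosphodiesterases (median 0.04) Pde10a, with 0 called in each. Of 17 genes of the basement membrane and its integrin, 16 lay below 0, the median was -0.06 and 0 were called, Npnt having the smallest p.

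Receptor and activity genes gave 0 calls. The 15 ionotropic glutamate receptor genes had a median of 0.03, with Grik2 at 0.18 ± 0.04 (limma adjusted p = 0.17), and the 12 serotonin receptor and transporter genes tested had 0.06, with Htr1d at 0.61 ± 0.21 (adjusted p = 0.38). The 12 GABA-A receptor genes lay below 0 in 12 of 12 cases in females (median -0.10) and in 5 of 12 in males (median 0.05), with Gabra2 at -0.26 ± 0.11 over both (adjusted p = 0.52). Immediate early genes, which neuronal activity induces, also split by sex: 18 of 22 were above 0 in females (median 0.17) and 4 of 22 in males (median -0.10), with Rgs2 at 0.20 ± 0.06 over both (adjusted p = 0.30). The genes of a list are read together in each library, and the difference between the sexes was called for 0 genes.

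Respiratory genes had medians below 0. Of 36 nuclear-encoded complex I genes 31 were below 0 (median -0.04), with 23 above 0 in females and 4 in males, 0 called and Ndufa12 at -0.10 ± 0.04 (limma adjusted p = 0.50). Without HT male 1 the median was -0.015 with 23 below 0. The 13 mitochondrially encoded genes had a median of -0.19, or -0.10 after quantile normalization, with 11 below 0, 7 of them at an unadjusted p under 0.05, and mt-Atp8 at -0.17 ± 0.05 (adjusted p = 0.27). The 22 cholesterol synthesis genes were split, 10 above and 12 below 0, with Acat2 at 0.09 ± 0.05 (adjusted p = 0.65).

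The 40 fluoxetine and lithium libraries share no sample with the vehicle comparison. Averaged over both drugs and sexes, 270 of 17567 genes (1.54%) were called between HT and WT, 133 higher (0.757%) and 137 lower (0.78%), with 2996 (17.1%) at an unadjusted p under 0.05. All 9 vehicle genes had the same sign there, beside 63.9% of all genes, and 4 of them were called: Alox12b (0.57, limma adjusted p = 0.0017), Gm10635 (-0.66, adjusted p = 0.0079), Myl4 (-0.28, adjusted p = 0.0017) and CT486005.1 (0.31, adjusted p = 0.029). The other 5 stood at 0.19 for Kif27, 0.30 for Smpdl3b, 0.18 for Col9a3, -0.14 for Shroom3 and 0.10 for Rapgef6. All 9 differences were smaller than under vehicle, where they had been chosen.

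Alox12b had 107 ± 48.5 normalized counts in HT and 65.1 ± 11.9 in WT under fluoxetine (SD, n = 10), where 1 HT library reached 238, and 80.7 ± 13.7 against 56.6 ± 9.72 under lithium. Myl4 had 921 ± 81.8 against 1107 ± 136 under fluoxetine and 905 ± 117 against 1109.5 ± 137 under lithium. Kif27 had 64.4 ± 10.3 against 61.8 ± 6.40 under fluoxetine, and 59.0 ± 8.76 against 46.8 ± 7.41 under lithium. Alox12b and Myl4 thus differed the same way in each drug group, and the Kif27 means were close under fluoxetine. The difference between the vehicle and drug values was called for 0 of 17804 genes (percent called 0) by limma, DESeq2 and edgeR, with 821 (4.61%) at an unadjusted p under 0.05.

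Genes named above that were called in the drug libraries include Trip12 (0.11, limma adjusted p = 0.039), Mtfp1 (-0.10, adjusted p = 0.039), Socs2 (-0.16, adjusted p = 0.013), Npnt (-0.24, adjusted p = 0.0017), Pvalb (-0.28, adjusted p = 0.043) and Ctss (0.30, adjusted p = 0.00017). Abcc9 (-0.04, adjusted p = 0.79), Pde10a (0.02, adjusted p = 0.94) and Rasgrp2 (0.09, adjusted p = 0.43) were not. The striatal core median was -0.06 in the drug libraries against 0.65 under vehicle, the endothelial and mural median 0.01 against -0.13, and the bulb core median -0.82 against -0.78. The basement membrane median was 0.07 against -0.06 under vehicle, with Lamb1 (0.19) and Col4a2 (0.21) called higher and Npnt lower.

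Complex I and immediate early genes lay on 1 side of 0 in the drug libraries, where the median of all genes was 0.0026 and 1.54% were called. All 36 nuclear-encoded complex I genes were below 0 (median -0.10), and 3 fell: Ndufs4 (-0.17, limma adjusted p = 0.029), Ndufs6 (-0.17, adjusted p = 0.030) and Ndufv3 (-0.14, adjusted p = 0.042). All 22 immediate early genes were above 0 (median 0.20), and Egr4, an activity-induced transcription factor, rose (0.33, adjusted p = 0.036). Of the 6 genes tested on the lipoxygenase list 3 rose, Alox12b and its relatives Aloxe3 (0.29, adjusted p = 0.045) and Alox8 (0.30, adjusted p = 0.042). These 3 genes lie close together, with Aloxe3 at chr11:69125896-69149115 and Alox8 at chr11:69183932-69197843 on either side of Alox12b.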

How the data were processed

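RNA from 60 mouse prefrontal cortex samples was sequenced from stranded mRNA libraries, per the labels' protocols. The deposited values are a signal of gene counts divided by size factors; the submitters' processing notes name Salmon 0.11.2, R 3.6.0, DESeq2 1.19.11 and GRCm38, and the annotation, strand setting and any filter are not given in the sources used here. Values gave whole reads for 100% of entries (tolerance 0.01), so reads and depth were recovered. Of the gene IDs 18077 matched a symbol, 11 had none and 40 shared one.

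A gene was tested if 5 or more libraries reached 10 normalized counts. limma 3.58.1 (R 4.3.3) was fitted to log2(value + 1) with sex as a block, and p-values were adjusted over all genes tested. edgeR 4.0.16 and DESeq2 1.42.0 on the recovered reads, other scalings, filters and pseudocounts, marker scores and each library left out were alternatives. Samples were grouped by their labels, and no 2 replicates agreed within sampling noise (smallest chi-square per gene 5.24). The fit was tested on simulated data with known changes.

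Genes named are Trip12, up to 15 called each way with a mean of at least 50, up to 5 called per sex and for the sex difference, the called or smallest-p genes of each list, and core markers; gene models without a proper symbol were left out. The members and the 34 lists were chosen with earlier results of these data known. The values of some list members are not reported here.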

Additional observations from a re-analysis of the deposited data

Results flagged for a closer look

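In each group of 5 vehicle libraries the highest and lowest values were compared with the rest, and a library was singled out when its gap to the next exceeded 0.71 of the group's range. Chance does so in about 1 in 20 groups, and here 12 of 120 groups were singled out. HT male 1 accounts for 7 of them. Its values stood highest among HT males for the bulb markers Eomes (717), Tbx21 (230.2), Cdhr1 (3567), Doc2g (1964) and Shisa3 (528) and for the length slope (0.0889). The Myl4 value of HT male 1 (739) stood lowest in that group. Among striatal markers, HT female 1 stood highest in Adora2a (292). WT female 5 stood highest among WT females in Drd2 (84.3), Adora2a (166), Ppp1r1b (2454) and the striatal score (0.24).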

How the results depend on the processing

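Over both sexes 9 genes were called, and quantile normalization (6), TMM (9), edgeR (9), pseudocounts of 0.5 and 5 (9 each), no filter (10) and a minimum of 50 counts (9) stayed within 1.5 times of that. The count moved with DESeq2 (70), array weights (96), all 60 libraries in the fit (27), the striatal score (1), the bulb score (5), both scores (4), 3 scores (4) and no sex term (2); the cause was not tested. Of the alternatives chosen after seeing the data, the length slope as a covariate gave 32 and both scores without HT male 1 gave 3. Leaving out each library gave 2 to 39. In females the counts were 0 in the main test, 5 with DESeq2, 1 with all 60 libraries, 1 with the length slope, and 0 to 1 with each library left out. In males they were 1 in the main test, 53 with DESeq2, 257 with array weights, 2 with all 60 libraries, 0 with the striatal score, 5 with the bulb score, 178 with both, 134 with the length slope, 0 with both scores and without HT male 1, and 0 to 88 with each library left out. The sex difference and the vehicle minus drug difference gave 0 throughout. The drug libraries gave 270, or 665 with both scores, 568 with DESeq2 and 185 to 394 with each library left out. Single genes named here were not given with adjustment by a score they belong to. The counts with scores and the slope counts took in every gene tested, core markers included. With the striatal score the values of Eomes (0.14), Tbx21 (0.038), Cdhr1 (0.16), Shisa3 (0.13) and Prokr2 (0.018) changed sign, as did Arel1 (-0.0022) with both scores and without HT male 1. Same-numbered libraries were not shown to pair: 2 of 10 pairs had a correlation over 0.1 (-0.18 to 0.25) and 1 of 10 libraries correlated best with its own number. With the replicate block, 0 genes were called over both sexes (1355 at an unadjusted p under 0.05), 0 in males (1575 unadjusted) and 134 in the drug libraries. The median SE of 0.0698 limits what can be seen at this number of libraries.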
